A study of Mus musculus with 20 samples.

Results

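Solute carriers are the membrane proteins that move amino acids, sugars, ions, metals, vitamins and metabolites across the plasma membrane and the membranes of organelles. They were followed here through regression and regrowth of the mouse prostate, over the probe sets of an Affymetrix array whose single gene symbol begins with Slc and a number. Slc25a1, Slc3a2, Slc10a6 and Slc2a1 were left out by rule. A probe set was kept where its signal exceeded 191 (the median over the whole table) on 5 or more of the 20 arrays. This left 97 probe sets of 89 genes, out of 12488 probe sets on the array and 6911 that passed the same signal filter. The members were thus chosen by their signals, and their level is not a result. They span 32 carrier families, and 3 of the genes, Slc4a1ap, Slc9a3r1 and Slc9a3r2, carry the name but encode adaptor proteins and not transporters.

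Prostates came from mice of 10 to 12 weeks, 5 mice in each of 4 groups, with 1 array per mouse. The strain, C57/B6, is given in the source label of the sham group. The groups were sham-treated mice (coded N3 in the labels), mice 3 days after castration, mice 14 days after castration, and mice that carried a 15 mg testosterone pellet for the last 3 days after 14 days of castration (the testosterone group). The labels name no transgene, no other drug and no batch, so treatment and any batch laid out by group cannot be told apart. RNA came from prostate tissue, in which fewer cells of a type and less RNA per cell cannot be told apart.

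The families differ in what drives them. Many carriers of the plasma membrane use the sodium gradient or exchange one solute for another, and those of the Golgi, the endoplasmic reticulum and the mitochondrial inner membrane supply these organelles with sugar nucleotides, ATP, phosphate and metabolites. The prostate epithelium secretes protein in bulk and is known for high zinc and citrate, so carriers of amino acids, zinc and mitochondrial metabolites are the ones most often discussed in it. Androgen withdrawal removes most luminal secretory cells, and androgen replacement restores them.

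A member's signal is the authors' expression value of a probe set on a linear scale. A change is the difference of log2(signal + 12.7) between groups, the condition named first minus the one it is set against, with the standard error (SE) of a limma model over all 20 arrays, n = 5 mice per group. A call is an adjusted p under 0.05, Benjamini-Hochberg over all 6911 probe sets. On 4 arrays the Gapdh 3′ to 5′ log2 ratio, a sign of RNA quality, was high: 2.05 and 1.82 on 14-day castrated replicates 4 and 5, and 4.50 and 3.90 on testosterone replicates 2 and 5. On the other 16 arrays it lay between -0.53 and -0.08. Members whose values rest on these arrays are also given without them.

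At 3 days after castration 10 member probe sets were higher and 19 lower than in sham prostates, 10.3% and 19.6% of 97. Over all 6911 probe sets tested, 9.84% were called higher and 4.46% lower. In either direction 29.9% of the members were called, against 14.3% of all, and the 2 groups did not overlap for 18 members, with a background of 13.3%. At 14 days against sham the members split into 14 higher (14.4%) and 34 lower (35.1%), where the background was 28.6% higher and 24.3% lower. In all 49.5% of members were called, against 52.9% of all probe sets, and 33 members had groups without overlap, with a background of 35%. In both comparisons with sham the share of members called lower was above its background, given as counts with no test of the list.

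Between 3 and 14 days of castration 14 members were higher and 25 lower at 14 days (14.4% and 25.8%, background 20.2% and 20.4%). Together these were 40.2% of the members, against 40.5% of all probe sets, and 35 members did not overlap, with a background of 32.4%. Testosterone for 3 days, set against castration for 14 days, gave 19 higher and 24 lower (19.6% and 24.7%, background 18.2% and 26.6%), a split close to that of all probe sets. In either direction 44.3% of the members were called, against 44.8% of all, and 35 did not overlap, with a background of 30.7%. Against sham, the testosterone group had 12 members higher and 33 lower (12.4% and 34%, background 23.5% and 29.5%). Called in either direction were 46.4% of the members, against 53% of all, and 29 did not overlap, with a background of 31.4%. As deposited, more members were thus called below the sham level than above it, as among all probe sets (2041 lower and 1623 higher). After median centring 44.2% of the member calls were higher. The median change of the members was -0.06 and -0.11 at 3 and 14 days against sham, -0.06 for testosterone against 14 days and -0.16 for testosterone against sham. The corresponding medians over all probe sets were 0.04, 0.01, -0.10 and -0.09.

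The direction of calls after testosterone depended on how arrays were scaled. The median of all probe sets for testosterone against 14 days lay at -0.10 as deposited, -0.02 after quantile normalization and 0.09 after centring each array on its median. The share of member calls that were higher was 44.2%, 57.8% and 70.7% under these 3 scalings. For testosterone against sham it was 26.7%, 34.1% and 44.2%. Single changes of the testosterone group below about 0.2 therefore have no settled direction. The count of 10 members called higher at 3 days was 6 without 3-day castrated replicate 3.

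**Figure D1:**
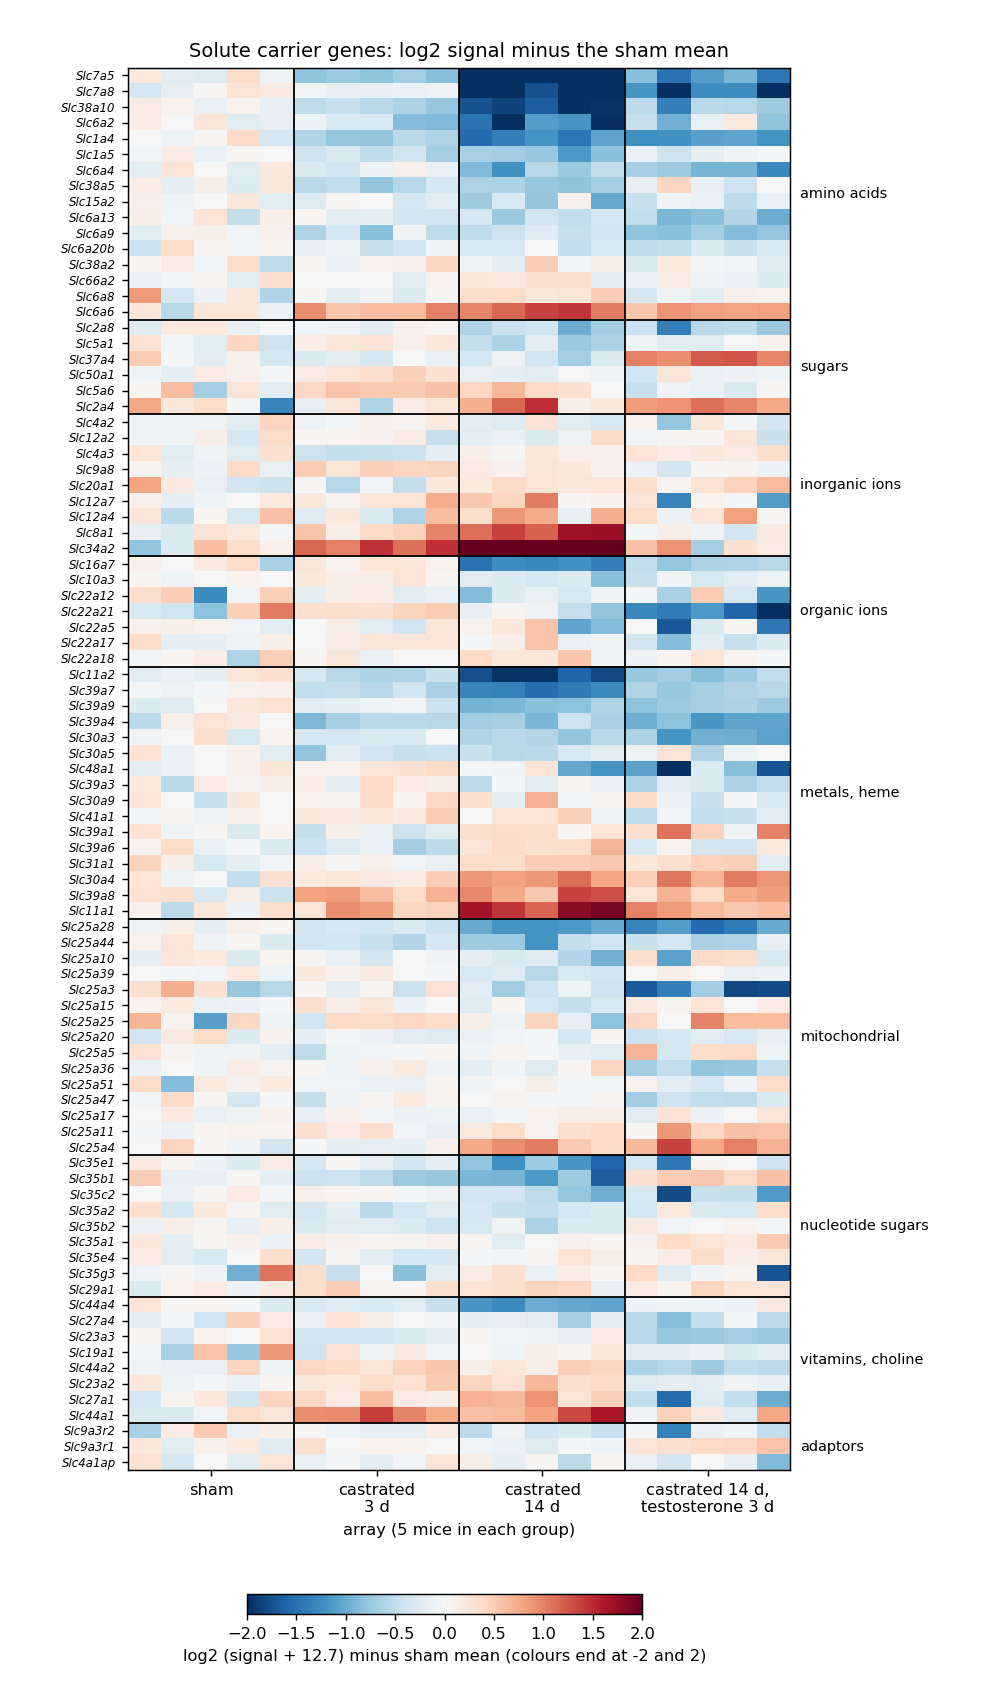
Log2(signal + 12.7) minus the sham mean for the 89 solute carrier genes (1 probe set each) on the 20 arrays, grouped by the kind of solute, with arrays in columns and colours ending at -2 and 2. Most amino acid carriers are blue at 14 days, Slc34a2, Slc8a1 and Slc11a1 are red there, and Slc34a2 and Slc8a1 are near the sham level after testosterone.

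Carriers of amino acids, peptides and neurotransmitters were called lower more often than higher in castrated prostates. Of 16 genes, 6 fell and 1 rose at 3 days (37.5% and 6.25%, background 4.46% and 9.84%), and 9 were not called. At 14 days 11 fell and 1 rose (68.8% and 6.25%, background 24.3% and 28.6%). After testosterone 5 of them were higher and 2 lower than at 14 days (31.2% and 12.5%, background 18.2% and 26.6%). Against sham prostates 8 were still lower (50%, background 29.5%). The class median at 14 days against sham was -0.62, the lowest of the 8 transporter classes. Summed signals of the seminal vesicle marker list, genes of the neighbouring gland and of its secretion, ran from 3179 to 32161 at 14 days, against 49567 to 71962 in sham prostates, with all 5 of its genes tested called lower. Their part in the changes of the amino acid carriers was not tested.

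Slc7a5 is the light chain of the exchanger LAT1, which brings leucine and other large neutral amino acids into growing and secreting cells. Its signals were 4475, 3352, 3269, 5018 and 3636 in sham prostates, 2235, 2337, 2235, 2416 and 2164 after 3 days of castration, 881, 926, 838, 750.2 and 936 after 14 days and 2173, 1392, 1809.7, 2061 and 1428 after testosterone. The sham, 3-day and 14-day arrays did not overlap, and the testosterone arrays lay above those of 14 days, with the highest of them just inside the 3-day range. The change was -0.77 ± 0.13 (adjusted p = 0.000751) at 3 days and -2.16 ± 0.13 (adjusted p = 2.81e-10) at 14 days against sham, a 4.46-fold lower level. Testosterone raised it by 1.003 ± 0.13 (adjusted p = 6.01e-06) relative to 14 days, and its change against sham remained -1.15 ± 0.13 (adjusted p = 1.26e-06).

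Slc38a10, an amino acid carrier of the family that includes the system A and system N transporters, moved much like it. Signals were 3983, 3722, 3188, 3701 and 3163 in sham prostates, 2474, 2591, 2407, 2269.7 and 2062 after 3 days of castration, 1045, 974, 1123, 714 and 897 after 14 days and 2449, 1364, 2442, 2368 and 2154 after testosterone. Here too the sham, 3-day and 14-day arrays were separate, the testosterone arrays lay above those of 14 days and overlapped those of 3 days, and testosterone replicate 2, an array of high Gapdh ratio, was the lowest of its group. The change was -0.58 ± 0.15 (adjusted p = 0.0114) at 3 days, -1.90 ± 0.15 (adjusted p = 5.13e-09) at 14 days and 1.16 ± 0.15 (adjusted p = 3.66e-06) for testosterone against 14 days. Against sham the testosterone group was lower (-0.74 ± 0.15, adjusted p = 0.000375).

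Slc7a8 is the light chain of LAT2, a related exchanger of neutral amino acids. Its signals were 434, 492, 562, 671 and 625 in sham prostates, 528, 492, 491, 502 and 515 after 3 days of castration, 124, 118, 156, 83.9 and 102 after 14 days and 235, 83.3, 226, 226 and 129.5 after testosterone. Sham and 3-day arrays overlapped, and every 14-day array lay far below them. The change was -0.12 ± 0.21 (adjusted p = 0.774) at 3 days and -2.14 ± 0.21 (adjusted p = 1.34e-07) at 14 days. Testosterone left it at -1.64 ± 0.21 (adjusted p = 5.12e-06) against sham, and the difference from 14 days, 0.50 ± 0.21 (adjusted p = 0.0649), did not pass the test. Testosterone replicates 2 and 5, the arrays of high Gapdh ratio, held the lowest values of their group. Without the 4 such arrays the change against sham was -1.22 (adjusted p = 2.55e-06) and that against 14 days 0.74 (adjusted p = 0.000694).

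Slc1a4 and Slc1a5 encode the exchangers ASCT1 and ASCT2 for alanine, serine, cysteine and, in the case of ASCT2, glutamine. Slc1a4 read 868, 817, 915, 1145 and 696 in sham prostates, 572, 509, 499.5, 599 and 568 after 3 days of castration, 291, 331, 376, 312 and 416 after 14 days and 367, 371, 405, 416 and 377 after testosterone. The sham, 3-day and 14-day arrays did not overlap, while the testosterone arrays lay within or near the 14-day range. The change was -0.67 ± 0.12 (adjusted p = 0.000772) at 3 days and -1.32 ± 0.12 (adjusted p = 2.2e-08) at 14 days. After testosterone it was 0.17 ± 0.12 (adjusted p = 0.247) against 14 days and -1.16 ± 0.12 (adjusted p = 2.26e-07) against sham. The first of these was called under other scalings, with 0.31 (adjusted p = 0.0314) after quantile normalization and 0.36 (adjusted p = 0.0389) after median centring.

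Slc1a5 differed from Slc1a4 after testosterone. It averaged 1383 ± 112 in sham prostates, 1009 ± 102 at 3 days, 783 ± 102 at 14 days and 1232 ± 119 after testosterone (SD, n = 5 each). Testosterone arrays were all above the 14-day arrays (0.65 ± 0.10, adjusted p = 4.89e-05) and overlapped sham (-0.17 ± 0.10, adjusted p = 0.188). Its change after castration was -0.45 ± 0.10 (adjusted p = 0.00627) at 3 days and -0.82 ± 0.10 (adjusted p = 2.79e-06) at 14 days. Slc38a5, a system N carrier of glutamine, had the same order: -0.55 ± 0.13 (adjusted p = 0.00909) and -0.70 ± 0.13 (adjusted p = 0.000242) after castration and 0.64 ± 0.13 (adjusted p = 0.000711) for testosterone against 14 days. With the high-Gapdh arrays left out, the last value was 0.42 (adjusted p = 0.0282).

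Promoter sequence was examined for 72 of the 89 genes that a RefSeq table of 300-base windows holds (250 bases before to 50 after the annotated start, mouse build GRCm38.p6). The 2 printed here are those of Slc1a4, shown for the motif in it, and of Slc38a10, shown as an amino acid carrier that was lower after castration and has none of the motifs. Slc1a4 lies at chr11:20332664-20332963 and Slc38a10 at chr11:120151302-120151601, both on the minus strand, and both are written along the gene. Capitals mark the amino acid response element TGATGNAA, a motif bound by the amino acid stress factor ATF4 with its partners, found on the opposite strand.

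Slc1a4: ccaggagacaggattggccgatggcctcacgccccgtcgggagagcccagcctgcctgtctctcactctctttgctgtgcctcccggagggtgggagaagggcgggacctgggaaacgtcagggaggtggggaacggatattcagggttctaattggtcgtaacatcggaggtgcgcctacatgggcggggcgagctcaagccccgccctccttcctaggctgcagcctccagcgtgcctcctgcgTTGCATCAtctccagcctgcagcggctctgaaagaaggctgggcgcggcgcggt
Slc38a10: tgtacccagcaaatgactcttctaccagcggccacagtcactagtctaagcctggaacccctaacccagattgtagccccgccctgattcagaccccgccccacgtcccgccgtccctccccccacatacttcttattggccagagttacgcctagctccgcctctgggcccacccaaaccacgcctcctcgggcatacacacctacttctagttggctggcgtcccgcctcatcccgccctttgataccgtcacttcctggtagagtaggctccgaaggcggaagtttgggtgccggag

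In the window of Slc1a4 the motif begins at base 247, and the window of Slc38a10 has none of the motifs searched. Both strands were searched. A gene was counted once, where any of its windows held the motif. TGATGNAA occurred in 3 of the 72 member genes (4.17%), Slc1a4, Slc23a3 and Slc50a1, and in 4.51% of all 27025 genes in the table. The inverted repeat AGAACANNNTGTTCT, the classic androgen response element, occurred in none of the 72 and in 0.0111% of all genes. Its shorter part AGAACA, which every such repeat contains, occurred in 10 of them (13.9%), against 21.3% of all. These matches describe letters in a short window and say nothing of binding.

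Carriers of the Slc6 family, which use sodium and chloride to take up neurotransmitters, osmolytes and some amino acids, went in both directions. Slc6a6, the taurine carrier by which cells adjust their volume, was the single gene of the class that rose. Its signals were 1057, 615, 1083, 1071 and 831 in sham prostates, 1744, 1344, 1410.5, 1414 and 1838 after 3 days of castration, 1804, 2044, 2347, 2483 and 1893 after 14 days and 1341, 1709, 1611, 1582 and 1613 after testosterone. Every castrated and every testosterone array lay above every sham array. The change against sham was 0.75 ± 0.14 (adjusted p = 0.00182) at 3 days, 1.19 ± 0.14 (adjusted p = 1.57e-06) at 14 days and 0.77 ± 0.14 (adjusted p = 0.000221) after testosterone. Testosterone lowered it relative to 14 days (-0.42 ± 0.14, adjusted p = 0.024), a call lost on leaving out any 1 of 3 arrays, 14-day replicates 3 and 4 and testosterone replicate 1, with values of -0.47 to -0.22 over all settings.

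Slc6a2, the noradrenaline carrier of sympathetic nerve endings, read 295, 268, 316, 223 and 235 in sham prostates, 245, 213, 209, 140.1 and 139 after 3 days of castration, 86.7, 43.9, 116, 112 and 37.4 after 14 days and 189.8, 131, 238, 304 and 147 after testosterone. All 14-day arrays lay below all others. The change was -0.50 ± 0.26 (adjusted p = 0.234) at 3 days and -1.70 ± 0.26 (adjusted p = 2.45e-05) at 14 days, and testosterone raised it by 1.27 ± 0.26 (adjusted p = 0.00059) against 14 days. The nerve marker list moved the other way: 5 of 6 genes tested were higher at 14 days, with Nefh lower, and its summed signal was 3721 to 4558 at 14 days, against 2075 to 2803 in sham prostates. All 14-day signals of Slc6a2 lay below the median of the arrays.

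Slc6a9, a glycine carrier, fell at 3 days (-0.48 ± 0.11, adjusted p = 0.00695) and at 14 days (-0.40 ± 0.11, adjusted p = 0.00578) and was lowest after testosterone (-0.80 ± 0.11 (adjusted p = 1.1e-05) against sham). Its decrease from 14 days to testosterone, -0.40 ± 0.11 (adjusted p = 0.00689), was not called after median centring, -0.20 (adjusted p = 0.193), or without the high-Gapdh arrays, -0.40 (adjusted p = 0.0552). Slc6a4, the serotonin carrier, and Slc6a13, a GABA and taurine carrier, fell as well. At 14 days against sham they changed by -0.78 ± 0.15 (adjusted p = 0.000242) and -0.46 ± 0.14 (adjusted p = 0.0091), and after testosterone by -0.91 ± 0.15 (adjusted p = 5.77e-05) and -0.76 ± 0.14 (adjusted p = 0.000144). Slc6a4 was measured by a probe set of the _f_ type, which can also detect related transcripts.

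**Figure D2:**
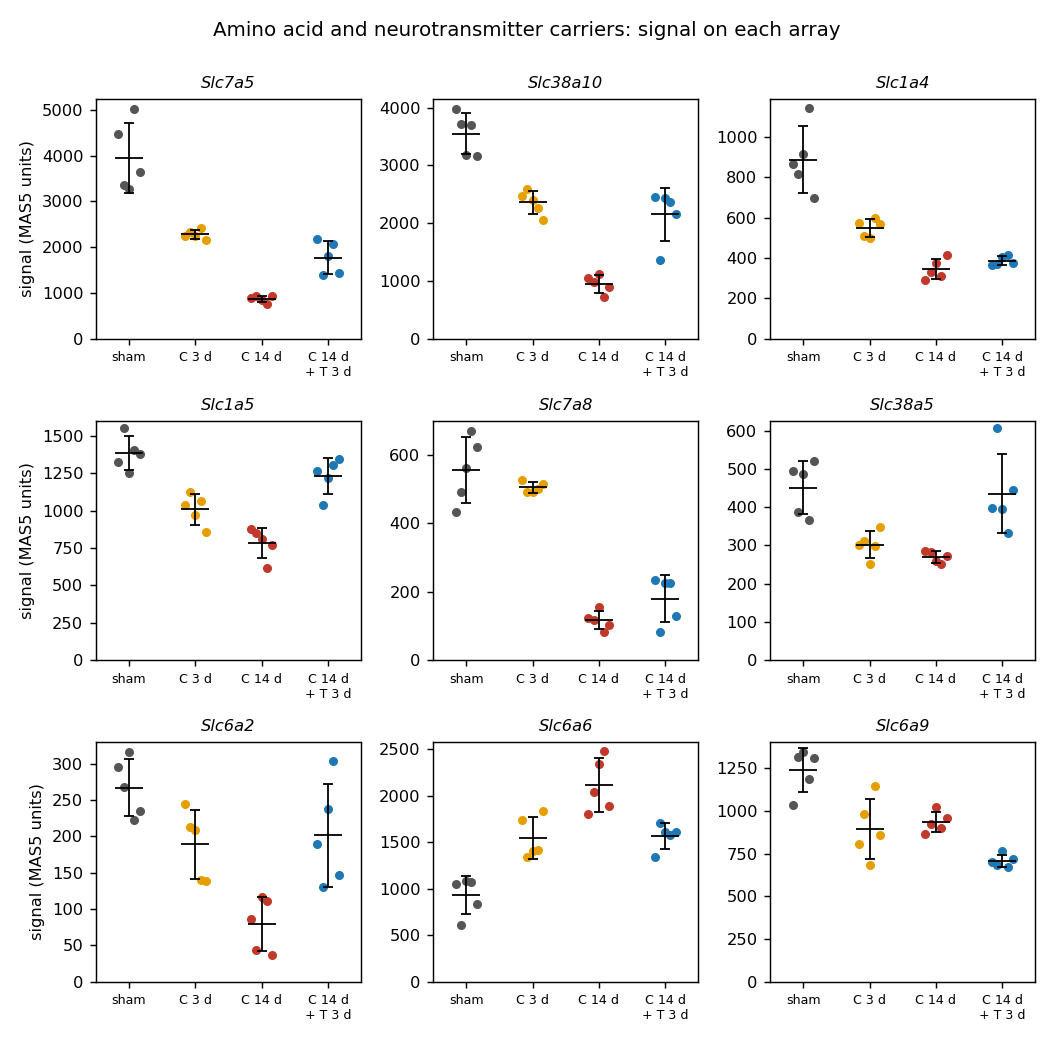
Signal on each of the 20 arrays for leading amino acid and neurotransmitter carriers, from left to right the sham mice, those castrated for 3 or 14 days and those given testosterone, with the mean and SD of 5 mice drawn as lines. Slc7a5 and Slc38a10 are highest in sham and lowest at 14 days without overlap, Slc1a4 and Slc7a8 stay low after testosterone, and Slc6a6 is the one that is lowest in sham.

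Metal and heme carriers, 20 probe sets of 16 genes, changed in both directions. At 14 days against sham 6 probe sets were higher and 7 lower (30% and 35%, background 28.6% and 24.3%), and 7 were not called. Testosterone gave 2 higher and 7 lower against 14 days (10% and 35%, background 18.2% and 26.6%). Against sham it gave 4 higher and 9 lower (20% and 45%, background 23.5% and 29.5%). The carriers that fell furthest take iron and zinc out of endosomes and the endoplasmic reticulum, and those that rose furthest include the macrophage metal carrier Slc11a1.

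Slc39a7 (ZIP7) releases zinc from the endoplasmic reticulum and Golgi into the cytosol. It read 4604, 4336, 4551, 4916 and 4923 in sham prostates, 3313, 3391, 3147, 3544 and 2962 after 3 days of castration, 1842, 1824, 1612, 1744 and 1946 after 14 days and 3068, 2752, 2925, 3081 and 3177 after testosterone. The sham, 3-day and 14-day arrays did not overlap, and the testosterone arrays lay above those of 14 days, below those of sham and partly within the 3-day range. The change was -0.51 ± 0.08 (adjusted p = 0.000162) at 3 days and -1.37 ± 0.08 (adjusted p = 7.82e-11) at 14 days, and testosterone raised it by 0.74 ± 0.08 (adjusted p = 2.28e-07) and left it lower than in sham, -0.64 ± 0.08 (adjusted p = 1.67e-06).

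Slc11a2 (DMT1), the proton-coupled carrier of ferrous iron, was read by 2 probe sets that differed after testosterone. The brighter one gave 1784, 1912, 1856, 2471 and 2578 in sham prostates, 1637, 1423, 1349.9, 1379 and 1538 after 3 days of castration, 611, 529, 529.8, 682 and 592 after 14 days and 1229, 1289, 1167, 1262 and 1482 after testosterone. Its change was -0.52 ± 0.11 (adjusted p = 0.00399) at 3 days, -1.82 ± 0.11 (adjusted p = 2.44e-10) at 14 days and 1.11 ± 0.11 (adjusted p = 1.72e-07) for testosterone against 14 days. The other probe set read 1825, 1406, 1921, 1714 and 1267 in sham, 871, 777, 866, 960.0 and 885 at 3 days, 616, 584, 599.6, 653 and 565 at 14 days and 574, 562, 532, 586 and 574 after testosterone. Both fell with castration, but the other one stayed down: -1.40 ± 0.10 (adjusted p = 1.82e-09) at 14 days, -0.09 ± 0.10 (adjusted p = 0.485) for testosterone against 14 days and -1.49 ± 0.10 (adjusted p = 1.1e-09) against sham. Which transcripts of the gene each probe set detects was not examined.

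Slc39a4 (ZIP4), a zinc importer of the plasma membrane, was the one gene whose probe sets were called in opposite directions in the same comparison. One of them, of the _r_ type (chosen under relaxed design rules), ranged over 2326 to 4066 in sham prostates, 1809.5 to 2318 after 3 days of castration, 1778 to 2532 after 14 days and 1494 to 1901 after testosterone. It changed by -0.67 ± 0.13 (adjusted p = 0.000298) at 14 days and -1.01 ± 0.13 (adjusted p = 4.4e-06) after testosterone against sham. Against 14 days its testosterone value, -0.35 ± 0.13 (adjusted p = 0.0382), was -0.15 (adjusted p = 0.463) after median centring and -0.30 (adjusted p = 0.166) without the high-Gapdh arrays. The other ranged over 460.0 to 676 in sham prostates, 509.7 to 759.9 after 3 days of castration, 1425 to 2146 after 14 days and 488 to 749.6 after testosterone, and was called higher at 14 days, 1.60 ± 0.15 (adjusted p = 5.81e-08), and lower after testosterone, -1.51 ± 0.15 (adjusted p = 1.59e-07) against 14 days. The direction of Slc39a4 in castrated prostates is therefore not settled by these arrays. Slc30a5 (ZnT5), which loads zinc into the early secretory pathway, was also read differently by its 2 probe sets. At 3 days they gave -0.46 ± 0.14 (adjusted p = 0.036) and 0.24 ± 0.17 (adjusted p = 0.402), and at 14 days -0.42 ± 0.14 (adjusted p = 0.0185) and 0.04 ± 0.17 (adjusted p = 0.859).

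Slc11a1 (NRAMP1) pumps metal ions out of the phagosomes of macrophages. Its signals were 104, 64.2, 114, 89.3 and 127 in sham prostates, 119, 197, 186, 135 and 138 after 3 days of castration, 335, 284, 234, 367 and 398 after 14 days and 209, 187, 158, 147 and 155 after testosterone. All 14-day arrays lay above all others, and the testosterone arrays lay between them and sham. The change was 1.59 ± 0.17 (adjusted p = 3.6e-07) at 14 days, -0.86 ± 0.17 (adjusted p = 0.000445) for testosterone against 14 days and 0.73 ± 0.17 (adjusted p = 0.00167) against sham. At 3 days it was 0.58 ± 0.17 (adjusted p = 0.0277), a call lost on leaving out sham replicate 2 or 4 or 3-day replicate 2 or 3, with values of 0.46 to 0.67 over all settings. The macrophage marker list moved with it: 9 of 9 genes tested were higher at 14 days, and its summed signal was 11209 to 20627, against 2749 to 3389 in sham prostates. After testosterone the sum was 4881 to 6997. Their part in the change of Slc11a1 was not tested.

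Zinc carriers at other membranes divided. Slc30a4 (ZnT4), which loads zinc into vesicles, rose at 14 days by 0.89 ± 0.14 (adjusted p = 3.36e-05) and stayed up after testosterone, 0.83 ± 0.14 (adjusted p = 8.38e-05) against sham. Slc39a8 (ZIP8), an importer of zinc and manganese, was higher in all 3 treated groups: 0.67 ± 0.17 (adjusted p = 0.0137) at 3 days, 0.98 ± 0.17 (adjusted p = 0.000119) at 14 days and 0.58 ± 0.17 (adjusted p = 0.00941) after testosterone. By contrast Slc30a3 (ZnT3), a vesicular zinc carrier best known from neurons, averaged 2467 ± 400.0 in sham prostates, 2062 ± 223 at 3 days, 1595 ± 108 at 14 days and 1254 ± 191 after testosterone (SD, n = 5 each). It changed by -0.61 ± 0.12 (adjusted p = 0.000224) at 14 days and -0.97 ± 0.12 (adjusted p = 1.94e-06) after testosterone against sham. Slc39a6, of the same family as Slc39a8, read 318 to 434 at 14 days of castration. Every 3-day array (158 to 240) and every testosterone array (200 to 304) lay below. Without the high-Gapdh arrays it changed by 0.73 (adjusted p = 0.000938) at 14 against 3 days and -0.67 (adjusted p = 0.00301) for testosterone against 14 days. The latter was -0.38 (adjusted p = 0.071) after quantile normalization and -0.36 (adjusted p = 0.108) after median centring.

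Slc39a9 (ZIP9), a Golgi and plasma membrane zinc carrier, changed by -0.82 ± 0.11 (adjusted p = 6.44e-06) at 14 days and -0.71 ± 0.11 (adjusted p = 3.87e-05) after testosterone. Slc39a1 (ZIP1), a zinc importer of the prostate epithelium, was not called against sham after castration (0.27 ± 0.18 (adjusted p = 0.218) at 14 days). It was higher after testosterone than in sham, 0.56 ± 0.18 (adjusted p = 0.0142). That call was lost without the high-Gapdh arrays, 0.24 (adjusted p = 0.218), of which testosterone replicates 2 and 5 held its highest values. On all arrays Slc39a1 read 707 to 1078 at 3 days and 1009 to 1286 at 14 days of castration. Without the high-Gapdh arrays its change at 14 against 3 days was 0.58 (adjusted p = 0.00807). Slc31a1 (CTR1), the copper importer, rose at 14 days in its brighter probe set, 0.45 ± 0.14 (adjusted p = 0.00996), but not in its other one, 0.07 ± 0.11 (adjusted p = 0.625). Slc39a9 and Slc39a1 were added to the named members after their values were seen.

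Slc48a1, a carrier of heme out of endosomes and lysosomes, read 250.2, 104, 440.5, 292 and 154 after testosterone, against 462, 486, 538, 577 and 639 in sham prostates. The change of -1.23 ± 0.30 (adjusted p = 0.00232) was -0.73 (adjusted p = 0.00154) without the high-Gapdh arrays. Testosterone replicates 2 and 5 held the 2 lowest values of their group, and 14-day replicates 4 and 5 the 2 lowest of theirs (529, 511, 645, 258 and 226).

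**Figure D3:**
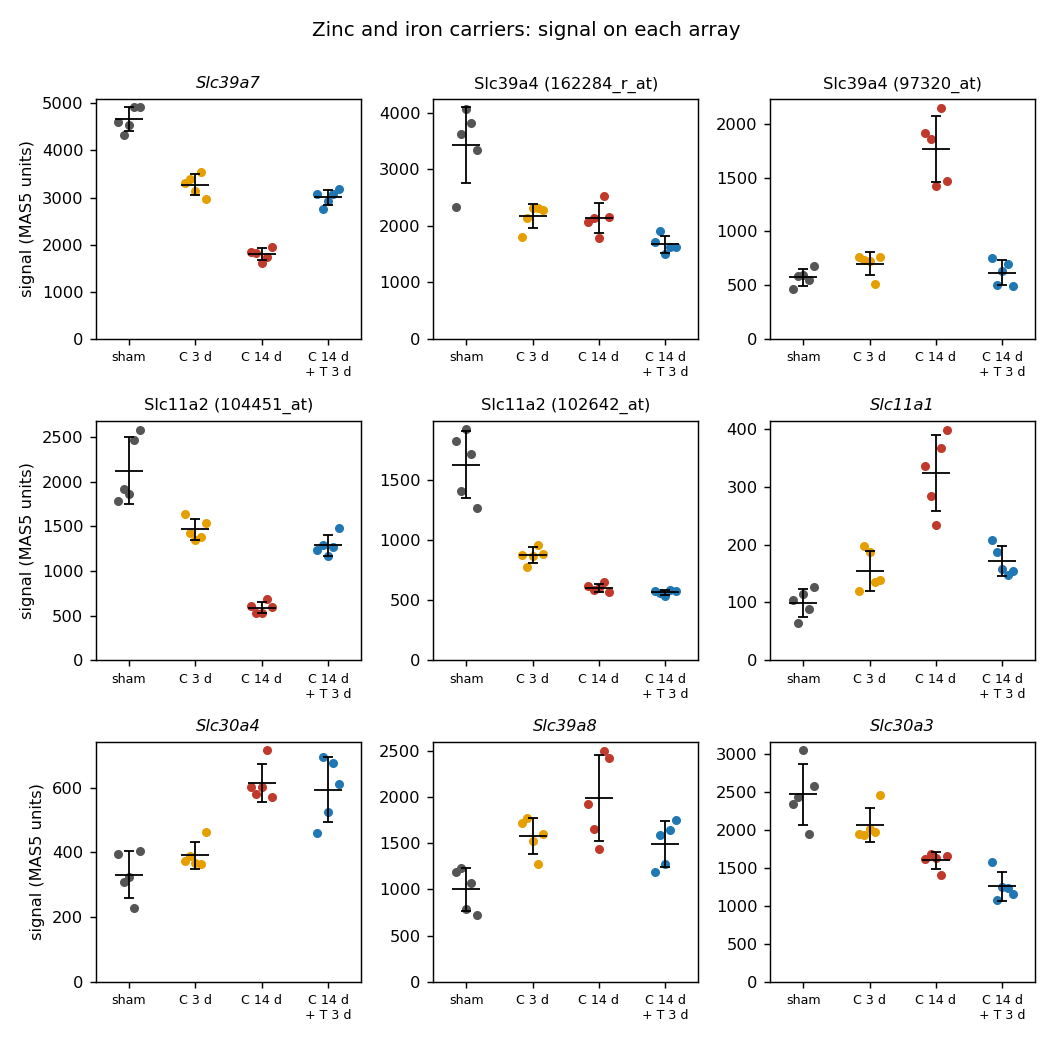
Signal on each of the 20 arrays for metal and heme carriers, in the same layout, with both probe sets of Slc11a2 and of Slc39a4 shown apart. Slc39a7 and the brighter probe set of Slc11a2 are lowest at 14 days, the other probe set of Slc11a2 is low both there and after testosterone, Slc11a1 and Slc30a4 are raised there, and the 2 probe sets of Slc39a4 go opposite ways at 14 days.

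Sugar carriers were few, 6 genes, of which 3 fell at 14 days against sham (50%, background 24.3%) and none rose (background 28.6%). Without the high-Gapdh arrays 2 were called lower, with Slc37a4 at -0.27 (adjusted p = 0.162). Without 14-day replicate 5, 2 were called higher, Slc2a4 and Slc5a6. Testosterone raised 2 of the 6 against 14 days (33.3%, background 18.2%), with 1 far above its sham level. Slc37a4 carries glucose 6-phosphate into the endoplasmic reticulum, where it is needed to make free glucose and reducing power. Its signals were 486, 332, 288, 366 and 262 in sham prostates, 279, 298, 263, 336 and 308 after 3 days of castration, 262, 315, 261, 206 and 276 after 14 days and 694, 656, 813, 831 and 676 after testosterone. Every testosterone array lay above every other array. The change was 1.44 ± 0.14 (adjusted p = 1.17e-07) against 14 days and 1.08 ± 0.14 (adjusted p = 4.3e-06) against sham, a 2.11-fold higher level and the largest change above sham among the members after testosterone.

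The plasma membrane carriers of glucose changed less. Slc5a1 (SGLT1) uses sodium to take up glucose. It was -0.54 ± 0.14 (adjusted p = 0.00268) at 14 days and came back with testosterone, 0.45 ± 0.14 (adjusted p = 0.0107), a change that was 0.34 (adjusted p = 0.151) without the high-Gapdh arrays. Slc2a8 (GLUT8), an intracellular sugar carrier, fell (-0.62 ± 0.16, adjusted p = 0.00284) at 14 days and stayed low after testosterone, -0.72 ± 0.16 (adjusted p = 0.000863) against sham. Slc50a1, a sugar carrier first known from its plant relatives, was lower at 14 than at 3 days, -0.42 ± 0.10 (adjusted p = 0.00371).

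Slc2a4 (GLUT4), the insulin-responsive glucose carrier of muscle and fat, read 227, 236, 274, 250.0 and 214 after testosterone, against 215, 142, 160.1, 119 and 41.1 in sham prostates. The groups overlapped, and sham replicate 5 was the lowest by far. At 14 days it was 0.73 ± 0.31 (adjusted p = 0.0524) against sham, 0.79 (adjusted p = 0.048) after quantile normalization and 1.11 (adjusted p = 0.0139) without the high-Gapdh arrays. The testosterone change of 0.91 ± 0.31 (adjusted p = 0.019) was 0.58 (adjusted p = 0.058) without sham replicate 5. Summed signals of 11 skeletal muscle markers were 12008 to 27224 after testosterone, against 4047 to 16169.7 in sham prostates, and sham replicate 5 had the lowest of these sums as well. Acta1 alone averaged 11498 after testosterone and 4776 in sham prostates. Of the 10 markers tested, 2 were called higher and 1 lower in this comparison (background 23.5% and 29.5%). Their part in the change of Slc2a4 was not tested. Slc5a6, which by its family stands here but carries biotin and pantothenate, gave 0.53 ± 0.17 (adjusted p = 0.0498) at 3 days, a call lost on leaving out any 1 of 16 of the 20 arrays, with values of 0.36 to 0.68 over all settings. For testosterone against 14 days it was -0.55 ± 0.17 (adjusted p = 0.0155), and -0.35 (adjusted p = 0.17) after quantile normalization and -0.35 (adjusted p = 0.15) after median centring.

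Carriers of inorganic ions numbered 9 genes. At 14 days 2, Slc34a2 and Slc8a1, were higher than in sham (22.2%, background 28.6%) and none lower (background 24.3%). After testosterone 4 were lower than at 14 days (44.4%, background 26.6%) and none higher (background 18.2%). Not one was called between testosterone and sham with limma (background 53%), at an unadjusted p under 0.05 in 1 of 9. Slc4a3 and Slc20a1, a phosphate carrier, were both called higher there after quantile normalization, after median centring and without sham replicate 1. For Slc4a3 the value was 0.24 ± 0.11 (adjusted p = 0.0694), and 0.40 (adjusted p = 0.00686) after median centring.

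Slc34a2, the sodium-phosphate cotransporter of many secretory epithelia, read 28, 45.6, 93.5, 77.9 and 62.7 in sham prostates, 144, 129, 178, 138 and 180.5 after 3 days of castration, 418, 489, 448, 490.5 and 543 after 14 days and 93.2, 118, 31.7, 74.2 and 66.2 after testosterone. All 5 of the 14-day arrays lay far above every other array, and the 3-day arrays lay in between. The change was 1.23 ± 0.25 (adjusted p = 0.00235) at 3 days, 2.80 ± 0.25 (adjusted p = 2.59e-08) at 14 days (6.95-fold on the log2(signal + 12.7) scale) and -2.54 ± 0.25 (adjusted p = 1.27e-07) for testosterone against 14 days. After testosterone it lay 0.26 ± 0.25 (adjusted p = 0.392) against sham. It passed the signal filter through the 14-day arrays alone, so it had to differ between groups to be a member, and its sham and testosterone signals lie in a range where the scale depends on the constant added.

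Slc8a1 (NCX1), the exchanger that trades sodium for calcium at the plasma membrane of muscle, nerve and other cells, followed the same course. Its signals were 321, 292, 441, 417 and 352 in sham prostates, 534, 397, 477, 502 and 726 after 3 days of castration, 787, 947, 829.6, 1199 and 1211 after 14 days and 354, 394, 342, 278 and 409 after testosterone. The 14-day arrays lay above all others, and the testosterone arrays overlapped the sham arrays. The change was 1.41 ± 0.16 (adjusted p = 7.92e-07) at 14 days, -1.44 ± 0.16 (adjusted p = 7.82e-07) for testosterone against 14 days and -0.03 ± 0.16 (adjusted p = 0.885) against sham. The value at 3 days, 0.51 ± 0.16 (adjusted p = 0.0427), lost its call on leaving out any 1 of 10 of the 20 arrays and ranged over 0.39 to 0.60. Smooth muscle markers, whose cells are known to hold this exchanger, summed to 16451 to 21681 at 14 days, against 25900.0 to 31656 in sham prostates, with 4 of 7 lower and 1 higher, and their part was not tested.

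Among the others, Slc9a8 (NHE8), a sodium-proton exchanger of the Golgi and of apical membranes, rose at 3 days by 0.42 ± 0.10 (adjusted p = 0.011). Slc4a3 (AE3), a chloride-bicarbonate exchanger, fell at 3 days (-0.39 ± 0.11, adjusted p = 0.0173) and was higher at 14 than at 3 days, 0.51 ± 0.11 (adjusted p = 0.00101). Slc12a2 (NKCC1), the cotransporter that loads secretory cells with chloride, averaged 5971 ± 972 after testosterone and 5855 ± 1202 at 14 days, against 6152 ± 1143 in sham prostates, with no call in any comparison. Slc12a7 (KCC4), a potassium-chloride cotransporter, read 306, 93.5, 268, 247 and 111 after testosterone, against 374, 348, 538, 259 and 270.5 at 14 days. Its change of -0.86 ± 0.26 (adjusted p = 0.0118) was -0.58 (adjusted p = 0.0168) without the high-Gapdh arrays, of which testosterone replicates 2 and 5 held its lowest values.

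Carriers of carboxylates, bile acids and organic ions, 7 genes, included 2 that stood out. None was called at 3 days by limma (background 14.3%), where 0 of 7 had an unadjusted p under 0.05. Slc16a7 (MCT2) carries lactate and pyruvate with protons. It read 483, 456, 518, 592 and 286 in sham prostates, 541, 476, 544, 540.1 and 480.4 after 3 days of castration, 154, 184, 179, 189.9 and 169 after 14 days and 319.7, 262, 288, 292 and 304 after testosterone. Every 14-day array lay below all others, and sham replicate 5 was the lowest of its group. The change was 0.18 ± 0.13 (adjusted p = 0.432) at 3 days and -1.32 ± 0.13 (adjusted p = 1.59e-07) at 14 days, with 0.70 ± 0.13 (adjusted p = 0.000279) for testosterone against 14 days and -0.61 ± 0.13 (adjusted p = 0.000887) against sham.

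Slc22a21, a carnitine carrier described in the mouse, was lowest after testosterone. Its signals there were 126, 116, 141, 99.7 and 73.5, against 292, 343, 312, 234 and 184 at 14 days. The testosterone arrays lay below every other array, and all of them lay below the median of the arrays. The change was -1.20 ± 0.26 (adjusted p = 0.000916) against 14 days and -1.49 ± 0.26 (adjusted p = 0.000114) against sham, whose own arrays spread over 181 to 687. Slc10a3, of the bile acid carrier family, fell at 14 days (-0.39 ± 0.11, adjusted p = 0.00414). Slc22a17, a receptor for iron-binding lipocalin, was -0.53 ± 0.14 (adjusted p = 0.00564) for testosterone against 14 days and -0.34 (adjusted p = 0.0519) after median centring.

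Mitochondrial carriers of the Slc25 family, 17 probe sets of 15 genes, exchange metabolites, nucleotides and cofactors across the inner membrane. At 14 days 5 probe sets were lower and 1 higher than in sham (29.4% and 5.88%, background 24.3% and 28.6%). After testosterone 7 were lower and 2 higher than in sham (41.2% and 11.8%, background 29.5% and 23.5%). Median centring turned the last split to 3 lower and 5 higher. Slc25a28 (mitoferrin 2), which brings iron into the organelle, fell furthest at 14 days. It read 1539, 1749.6, 1409, 1719 and 1656 in sham prostates, 1215, 1275, 1220.1, 1310.1 and 1186 after 3 days of castration, 791, 700.5, 702, 718 and 796 after 14 days and 629, 732, 538, 600.2 and 791 after testosterone. The sham, 3-day and 14-day arrays did not overlap, and the testosterone arrays overlapped the 14-day ones. The change was -1.11 ± 0.10 (adjusted p = 2.12e-08) at 14 days, -0.18 ± 0.10 (adjusted p = 0.137) for testosterone against 14 days and -1.29 ± 0.10 (adjusted p = 4.41e-09) against sham. The smaller change at 3 days, -0.37 ± 0.10 (adjusted p = 0.0131), was -0.37 (adjusted p = 0.0805) after median centring.

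Slc25a4 (ANT1), the ADP/ATP exchanger of heart and skeletal muscle, was the one mitochondrial carrier that rose at 14 days. It averaged 4901 ± 902 at 14 days and 5532 ± 1191 after testosterone, against 2967 ± 599.6 in sham prostates (SD, n = 5 each). The change was 0.72 ± 0.15 (adjusted p = 0.000622) at 14 days and 0.89 ± 0.15 (adjusted p = 9.61e-05) after testosterone. Skeletal muscle markers had summed signals of 2919 to 23426 at 14 days, against 4047 to 16169.7 in sham prostates, and 0 of 10 tested were called. At 3 days of castration their sums were 2172.5 to 4838, and Slc25a4 read 2553 to 3085, against 2269 to 3918.5 in sham prostates. At 3 days (replicate 5), 14 days (replicate 3) and after testosterone (replicate 2), the array with the highest sum was also highest for Slc25a4. Testosterone replicate 2 was an array of high Gapdh ratio. In sham prostates the highest sum was on replicate 3, where Slc25a4 read 2984, and its highest value was on replicate 2. The part of muscle in the change of Slc25a4 was not tested. Its relative Slc25a5 (ANT2), the form of most dividing cells, was not called in its brighter probe set in any comparison, with 0.28 ± 0.16 (adjusted p = 0.158) for testosterone against 14 days, while its other probe set was higher there, 0.59 ± 0.15 (adjusted p = 0.00375). Slc25a51, a carrier of NAD, was likewise not called in its brighter probe set and lower in the other one, with -0.42 ± 0.11 (adjusted p = 0.0178) at 3 days, -0.44 ± 0.11 (adjusted p = 0.00295) at 14 days and -0.40 ± 0.11 (adjusted p = 0.00678) after testosterone against sham. That other probe set is of the _f_ type, which can also detect related transcripts. The brighter probe set of Slc25a5 is of the _f_ type too, and its other one of the _r_ type.

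After testosterone 3 mitochondrial carriers were lower than in both sham and 14-day prostates. Slc25a36, a carrier of pyrimidine nucleotides, averaged 2311 ± 243 after testosterone, against 3601 ± 739 at 14 days. No testosterone array reached the range of either group, with -0.62 ± 0.12 (adjusted p = 0.000199) against 14 days and -0.64 ± 0.12 (adjusted p = 0.000136) against sham. Slc25a3, the phosphate carrier that feeds ATP synthesis, was read at 51.3, 66.3, 113, 45.3 and 46.4 after testosterone, against 164, 114, 140.4, 178 and 140.4 at 14 days. Its change of -1.10 ± 0.25 (adjusted p = 0.00144) concerns signals under the median of all values on every array of both groups, and the gene was a member through sham and 3-day arrays. Slc25a47, a carrier best known from liver, read 136, 168, 159, 157 and 185 after testosterone, against 229, 238, 221, 225 and 236 at 14 days. Its change was -0.49 ± 0.13 (adjusted p = 0.00431) against 14 days and -0.47 ± 0.13 (adjusted p = 0.00453) against sham, and -0.29 (adjusted p = 0.104) and -0.31 (adjusted p = 0.0761) after median centring. Slc25a39, a carrier of glutathione, fell at 14 days (-0.37 ± 0.09, adjusted p = 0.00132) and came back with testosterone, 0.34 ± 0.09 (adjusted p = 0.0031). Slc25a44, a carrier of branched-chain amino acids, fell at 14 days (-0.70 ± 0.14, adjusted p = 0.000242).

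Carriers that supply the endoplasmic reticulum and Golgi, 10 probe sets of 9 genes with 1 nucleoside carrier among them, were called lower but not higher than in sham after castration, and higher but not lower than at 14 days after testosterone. At 14 days 5 probe sets were lower than in sham (50%, background 24.3%) and none higher (background 28.6%), but 1 was higher without the high-Gapdh arrays. Testosterone gave 4 higher against 14 days (40%, background 18.2%) and none lower (background 26.6%). The 4 became 5 after quantile normalization and 3 without the high-Gapdh arrays. The glycosylation and folding of secreted protein depend on these carriers.

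Slc35b1, described in human cells as the carrier that brings ATP into the endoplasmic reticulum, read 6464, 4088, 4113, 4666 and 4080.2 in sham prostates, 3399, 3444, 3227, 2782 and 2719 after 3 days of castration, 2443, 2422, 2071, 2802 and 1458 after 14 days and 5711, 6518, 6728, 5966 and 6953 after testosterone. Castrated prostates lay below sham at both times, and every testosterone array lay above every castrated array. The change was -0.57 ± 0.15 (adjusted p = 0.017) at 3 days, -1.07 ± 0.15 (adjusted p = 1.15e-05) at 14 days and 1.53 ± 0.15 (adjusted p = 1.78e-07) for testosterone against 14 days, a 2.90-fold higher level. Against sham the testosterone group was higher by 0.46 ± 0.15 (adjusted p = 0.0168), with 1 sham array inside its range, and by 0.36 (adjusted p = 0.0523) after quantile normalization.

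Slc35b2 carries the sulfate donor PAPS into the Golgi. It changed by -0.32 ± 0.10 (adjusted p = 0.00933) at 14 days and 0.35 ± 0.10 (adjusted p = 0.00587) with testosterone. Slc35a1, the carrier of CMP-sialic acid, was -0.01 ± 0.10 (adjusted p = 0.942) at 14 days and 0.30 ± 0.10 (adjusted p = 0.0159) for testosterone against 14 days. That call was lost without the high-Gapdh arrays, 0.24 (adjusted p = 0.108), of which testosterone replicates 2 and 5 held its highest values. It was also lost without 14-day replicate 2 or testosterone replicate 5 alone, with values of 0.24 to 0.49 over all settings. Slc35e1, whose substrate is not established, fell at 14 days in its brighter probe set (-1.10 ± 0.22, adjusted p = 0.000299) and by -0.29 ± 0.18 (adjusted p = 0.186) in its other one, which was not called. Slc35c2, a Golgi protein linked to fucosylation, read 757, 266, 688, 681 and 427 after testosterone, against 943, 857, 968, 1069 and 934 in sham prostates. Testosterone replicates 2 and 5 were its lowest arrays, and the change of -0.84 ± 0.20 (adjusted p = 0.00226) was -0.42 (adjusted p = 0.00116) without the high-Gapdh arrays.

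Carriers of vitamins, choline and fatty acids, 9 probe sets of 8 genes, gave 4 higher and 1 lower at 14 days against sham. These were 44.4% and 11.1% (background 28.6% and 24.3%), with 2 higher without sham replicate 1. Testosterone lowered 5 and raised 1 of the 9 against 14 days (55.6% and 11.1%, background 26.6% and 18.2%). The choline carrier family Slc44 held both directions.

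Slc44a1 (CTL1), which takes up choline for phospholipid synthesis, read 644, 653, 764, 1021 and 936 in sham prostates, 1519, 1529, 2075, 1580.3 and 1337 after 3 days of castration, 1194, 1237, 1394, 1988 and 2489.8 after 14 days and 751, 1092, 899, 657 and 1364 after testosterone. Every castrated array at either time lay above every sham array, and the testosterone arrays overlapped both sides. The change was 0.998 ± 0.22 (adjusted p = 0.004) at 3 days, a 2.00-fold higher level, and 0.999 ± 0.22 (adjusted p = 0.000712) at 14 days. For testosterone against 14 days it was -0.78 ± 0.22 (adjusted p = 0.00602), and -0.59 (adjusted p = 0.0675) after median centring. Slc44a2 (CTL2), its relative, rose at 3 days by 0.41 ± 0.11 (adjusted p = 0.0144), 0.41 (adjusted p = 0.074) after median centring, and fell with testosterone (-0.86 ± 0.11, adjusted p = 2.79e-06).

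Slc44a4 (CTL4), which in humans carries choline and thiamine pyrophosphate in epithelia, went the other way. It read 2295, 1955, 1971, 1884 and 1591 in sham prostates, 1550.5, 1612, 1558, 1634 and 1412 after 3 days of castration, 849, 797, 959, 943 and 922 after 14 days and 1779.9, 1835, 1806, 1771 and 2189 after testosterone. All 14-day arrays lay below all others, and the testosterone arrays lay within or beside the sham range. The change was -1.10 ± 0.09 (adjusted p = 1.7e-08) at 14 days, 1.06 ± 0.09 (adjusted p = 3.89e-08) for testosterone against 14 days and -0.04 ± 0.09 (adjusted p = 0.723) against sham. The 3-day value, -0.31 ± 0.09 (adjusted p = 0.0326), lost its call on leaving out any 1 of 6 of the 20 arrays and ranged over -0.38 to -0.25.

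Slc27a1 (FATP1), which brings long-chain fatty acids into muscle and fat cells, read 275, 127, 326, 277 and 193 after testosterone, against 649, 633, 745, 476 and 555 at 14 days. The groups did not overlap, and testosterone replicates 2 and 5 held the lowest values. The change was -1.36 ± 0.21 (adjusted p = 2.9e-05), and -1.17 (adjusted p = 0.000188) without the high-Gapdh arrays. The change against sham was -0.76 ± 0.21 (adjusted p = 0.00526), and -0.42 (adjusted p = 0.0561) without them. Adipocyte markers moved with it, 4 of 5 genes tested lower after testosterone, with summed signals of 1113 to 1692, against 2921 to 4743 at 14 days, and their part was not tested.

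Slc23a2 (SVCT2), the carrier of vitamin C in most tissues, rose at 14 days by 0.42 ± 0.09 (adjusted p = 0.000631) and fell with testosterone (-0.60 ± 0.09, adjusted p = 2.05e-05). Neither pair of groups overlapped. Slc23a3, a relative of the same family whose substrate in these cells is not established, fell with testosterone (-0.68 ± 0.10, adjusted p = 2.68e-05), at signals under the median on every testosterone array.

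**Figure D4:**
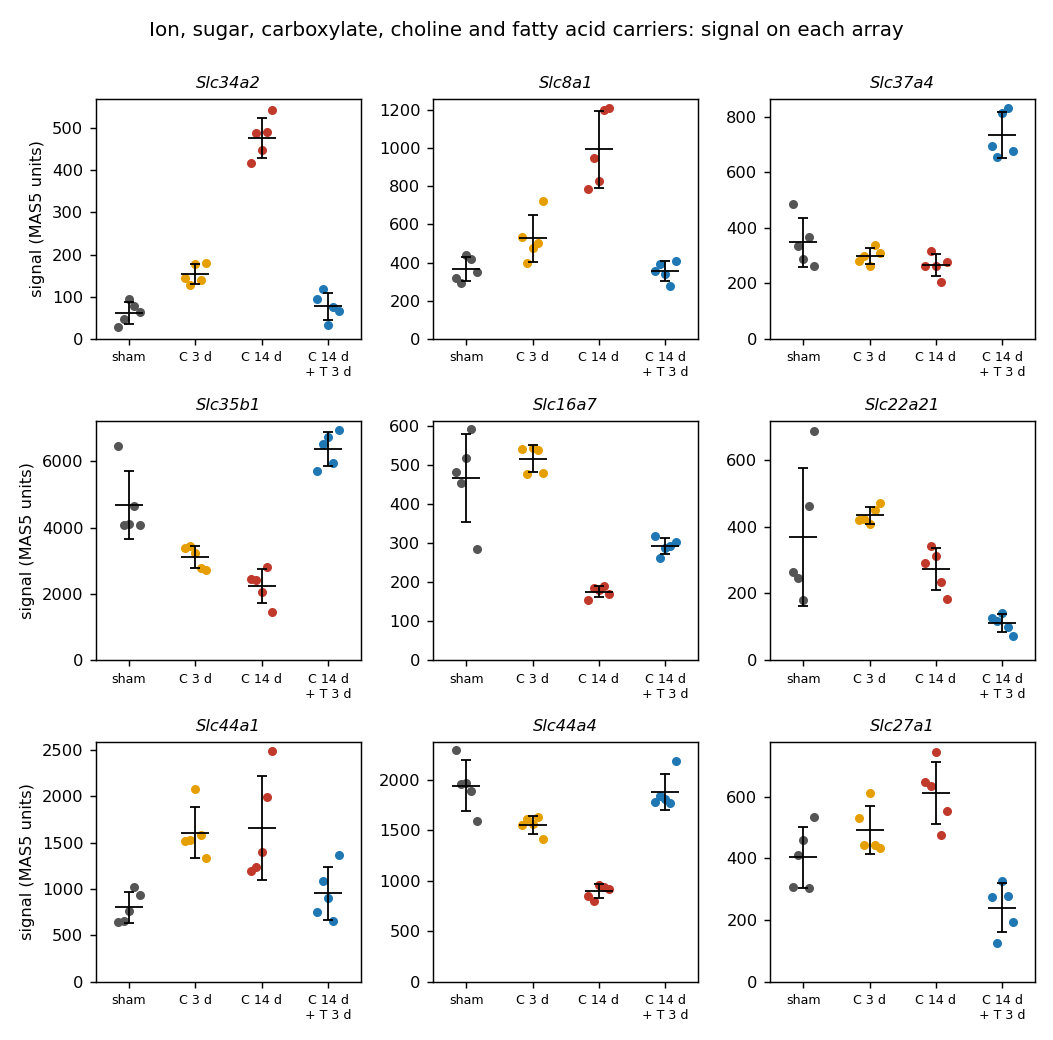
Signal on each of the 20 arrays for carriers of ions, sugars, carboxylates, choline and fatty acids, in the same layout. Slc34a2 and Slc8a1 peak at 14 days, Slc37a4 and Slc35b1 are highest after testosterone, and Slc44a1 and Slc44a4 move in opposite directions with castration.

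Of the adaptors that bear the Slc name, Slc9a3r1 (NHERF1), a scaffold that anchors carriers and channels under the apical membrane, was called. It averaged 2947 ± 237 after testosterone and 2062 ± 126 at 14 days, against 2251 ± 353 in sham prostates (SD, n = 5 each). Every testosterone array lay above every array of these other groups, with 0.51 ± 0.10 (adjusted p = 0.000519) against 14 days and 0.40 ± 0.10 (adjusted p = 0.00376) against sham. Slc9a3r2 and Slc4a1ap were not called in any comparison by limma, with 0 unadjusted p under 0.05 among their 10 values.

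Partners that hold carriers in the membrane were tested as well. Of 5 such genes tested, 3 were higher and 1 lower with testosterone against 14 days (background 18.2% and 26.6%). At 14 days against sham 1 was higher and 2 lower (background 28.6% and 24.3%). Pdzk1, a scaffold of apical carriers, changed by -1.59 (adjusted p = 0.00289) at 14 days and 2.63 (adjusted p = 3.19e-05) with testosterone. Emb (embigin), which brings lactate carriers to the surface, changed by 1.28 (adjusted p = 0.000478) at 3 days, 1.67 (adjusted p = 2.48e-06) at 14 days and -1.44 (adjusted p = 1.83e-05) with testosterone. Bsg (basigin), the more general partner of lactate carriers, changed by 0.83 (adjusted p = 9.41e-07) with testosterone against 14 days and was not called after castration. Pdzk1 and Bsg were thus higher after testosterone and Emb lower.

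The pumps and channels that set the gradients used by carriers were tested beside them, and their counts at 14 days against sham stand beside the background of 28.6% higher and 24.3% lower. Of 8 sodium pump genes on the array 5 were tested, and at 14 days 3 were higher and 2 lower than in sham. The higher ones were the regulatory subunits of the Fxyd family, with 1.74 (adjusted p = 2.08e-06) for Fxyd5 and 1.59 (adjusted p = 8.5e-08) for Fxyd1, and the lower ones the beta subunits Atp1b1 and Atp1b3. Of 14 proton pump subunits, 4 were higher and 4 lower at 14 days, with Atp6v0a1 lowest at -1.12 (adjusted p = 0.00504). Of 5 calcium and copper pumps, 2 were higher and 1 lower, Atp2a3 being higher by 0.80 (adjusted p = 0.003) and Atp2a2 lower (-0.40, adjusted p = 0.0236).

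Of 21 ABC transporter genes on the array 9 were tested, with 4 higher and 1 lower at 14 days against sham (background 28.6% and 24.3%). Abca1, the cholesterol exporter, was higher by 1.34 (adjusted p = 2.49e-06) at 14 days and lower with testosterone, -2.21 (adjusted p = 5.96e-09). Abcb8, a mitochondrial member, was higher at 14 days by 1.34 (adjusted p = 9.76e-05). One water channel was tested: Aqp1, the channel of capillary endothelium, was higher at 14 days by 1.66 (adjusted p = 2.6e-05) and lower with testosterone (-1.10, adjusted p = 0.00178). Endothelial markers moved with it, 4 of 5 tested higher at 14 days, with summed signals of 3483 to 4066, against 1723 to 2556 in sham prostates. Their part in it was not tested.

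The comparison of 3 days with sham and that of testosterone with 14 days share no array, so their calls can be set against each other. Of the 10 member probe sets higher at 3 days, 9 (90.0%) were lower after testosterone than at 14 days, which is 37.5% of the 24 that testosterone lowered. Over all probe sets tested, 65.4% of the 680 higher at 3 days were lower after testosterone, 24.2% of the 1840 that testosterone lowered. The members' count depended on scaling, with 6 of 8 after quantile normalization, 2 of 6 after median centring and 8 of 12 without the high-Gapdh arrays. As deposited the 9 were Slc6a6, Slc8a1, Slc9a8, Slc34a2 (a member through its 14-day arrays alone), Slc11a1, Slc5a6, Slc23a2, Slc44a1 and Slc44a2. None was higher in both. After median centring the testosterone value of Slc6a6 was -0.22 (adjusted p = 0.306). For Slc9a8 the second call, -0.27 ± 0.10 (adjusted p = 0.0468), was lost on leaving out any 1 of 14 of the 20 arrays, with values of -0.30 to -0.07 over all settings.

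Of the 19 lower at 3 days, 9 (47.4%) were higher after testosterone than at 14 days, again 47.4% of the 19 that testosterone raised. Over all probe sets tested, 62.0% of the 308 lower at 3 days were higher after testosterone, 15.2% of the 1259 that testosterone raised. The members were Slc7a5, Slc1a5, Slc38a10, Slc38a5, Slc11a2 (its brighter probe set), Slc39a7, Slc35b1, Slc35b2 and Slc44a4, carriers of amino acids, metals, choline and the supply of the secretory pathway. A further 3 were lower in both, Slc6a9, Slc23a3 and 1 probe set of Slc39a4, and none after median centring. For Slc35b2 and Slc23a3 the 3-day calls, -0.29 ± 0.10 (adjusted p = 0.0471) and -0.32 ± 0.10 (adjusted p = 0.0422), were lost on leaving out any 1 of 14 and 12 of the 20 arrays. No probe set among the members was called in opposite directions at 3 and at 14 days against sham.

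**Figure D5:**
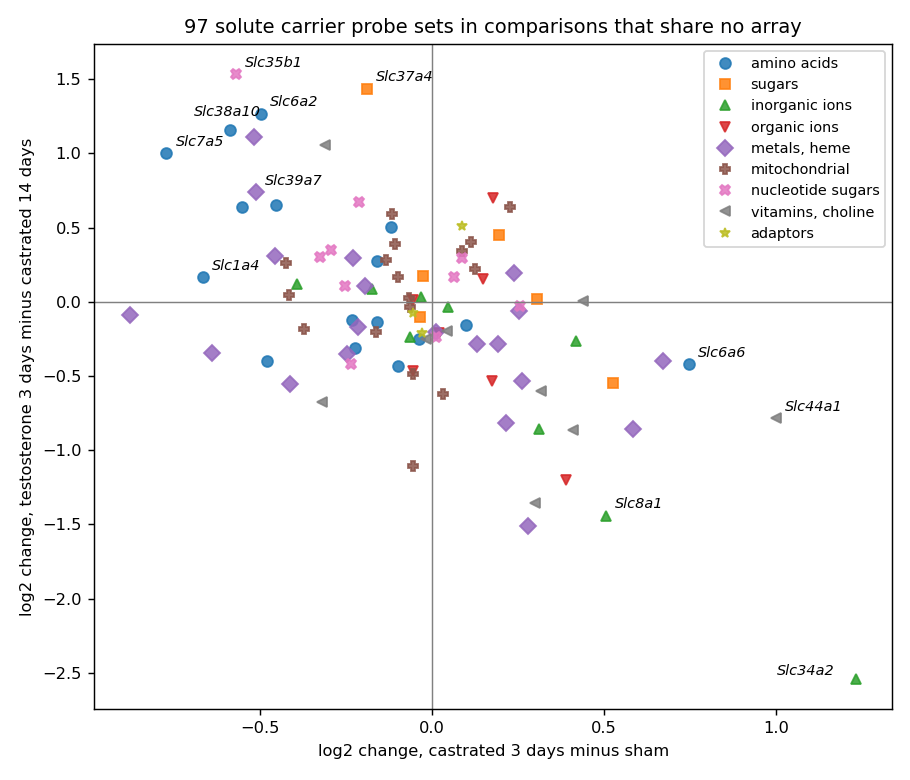
Log2 change of each of the 97 member probe sets 3 days after castration against sham (horizontal) and after testosterone against 14 days of castration (vertical), coloured by the kind of solute. Slc7a5, Slc38a10, Slc35b1 and Slc39a7 lie at upper left, and Slc34a2, Slc8a1 and Slc44a1 at lower right.

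Of the 89 genes, 19 had no member probe set called in any comparison, among them Slc38a2, an amino acid carrier known to respond to starvation, with 0.07 ± 0.16 (adjusted p = 0.743) at 14 days. Slc12a2 and Slc25a17, a peroxisomal member of its family, belonged to them as well. A call that fails the threshold does not show that a level stayed the same.

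Of the 97 probe sets 60 lay above the median on all 20 arrays and 37 on 5 to 19 of them. Just inside the filter were Slc34a2 with 5 arrays and Slc23a3, Slc25a3, Slc30a9 and Slc35g3 with 6 each. Slc30a9 averaged 188 ± 51.6 at 14 days, against 163 ± 31.4 in sham prostates, and Slc35g3 194 ± 23.3, against 201 ± 116. Just outside were Slc22a23 and Slc33a1 with 4 arrays and Slc6a18 with 3. A further 83 solute carrier probe sets missed the filter, 70 of them above the median on no array, which left 58 genes with no probe set tested.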

How the data were processed

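The deposited values are signal intensities, 1 per probe set and array on a linear scale, which the authors made with MAS5 (version 5.0), per the submitters' processing notes. Each array had been scaled: after trimming 2% of probe sets at either end, its mean was close to 500. Scanning settings are not given in the sources used here. The 20 samples, each a mouse, were grouped from their labels, which number no replicates, so replicate numbers here follow the order of deposit and pair nothing. Symbols came from GEO's annotation of the array (10833 probe sets with 1 symbol, 396 with several, 1193 with none), and RefSeq kept all 89 member symbols. The 66 control probe sets were left out, and 6911 probe sets above 191 on at least 5 arrays were tested.

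Values were analysed as log2(signal + 12.7), the 10th percentile of all values being 12.7. One linear model covered the 4 groups (limma 3.58.1 in R 4.3.3, with lmFit, contrasts.fit and eBayes). It gave 5 contrasts, each tested on both sides and adjusted after Benjamini-Hochberg over all probe sets. The number of arrays, 5 in a group, limits precision, and p-values measure the spread between these mice. A gene with several member probe sets (8 genes) is given by the brightest, with disagreement between calls stated where a value is given. Per comparison, the rule for naming took up to 12 higher and 12 lower called members with no overlap of groups, up to 3 called members of each class, members called in opposite directions at 3 and 14 days, those at the edge of the filter and up to 2 of each transport list. The script was tested on simulated data. The members, classes and marker lists were chosen with earlier results of these data known. Alternatives were a pseudocount of 1 or 43.2, no filter or a filter on the mean, quantile normalization, median centring, a fit of only the groups compared, array weights, leaving out the 4 arrays of high Gapdh ratio, leaving out each array in turn and the other probe sets of a gene.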

Additional observations from a re-analysis of the deposited data

Results flagged for a closer look

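Dixon's test was run on 228 groups of 5 values, 4 for each of the 57 named members. In 13 of these groups a single value stood far from the rest, where chance alone gives about 1 in 20 groups. The same array could be flagged for several members. Testosterone replicate 2, an array of high Gapdh ratio, was low for Slc38a10, at 1364 against 2154 to 2449 on the other 4. Replicate 5 of the same group, also of high Gapdh ratio, was high for Slc44a4, at 2189 against 1771 to 1835. Among 14-day castrated arrays, replicate 5 was low for Slc10a3 (533 against 748 to 819), replicate 2 was low for Slc35a1 (298 against 356 to 376), and replicate 4 was low for Slc30a3 (1409 against 1609 to 1683) and high for Slc30a4 (716 against 570.0 to 603).

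Among 3-day castrated arrays, replicate 5 was the one that stood apart most often. It was high for Slc30a3 (2457 against 1934 to 2005), for Slc30a4 (462 against 363 to 388) and for Slc4a3 (336 against 274 to 286). Replicate 1 was high for Slc9a3r1 (2819 against 2213 to 2331), and replicate 2 was low for Slc9a8 (992 against 1143 to 1196). Sham replicate 4 was high for Slc25a39 (3197 against 2609 to 2752) and for Slc44a2 (922 against 620.0 to 647).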

How the results depend on the processing

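Median centring moved most counts of calls: 6 members higher at 3 days against sham, 9 higher at 14 against 3 days, 29 higher and 12 lower for testosterone against 14 days and 19 higher for testosterone against sham. It left 2 metal carriers lower for testosterone against 14 days and 3 mitochondrial carriers lower and 5 higher for testosterone against sham. The cause was not tested. Leaving out 1 array at a time, the members higher at 3 days numbered 6 to 10. The second probe set reversed the sign of Slc11a2 for testosterone against 14 days (-0.09) and of Slc39a4 at 3 days (0.28), at 14 days (1.60), at 14 against 3 days (1.32) and for testosterone against sham (0.09). Other counts that were 5 or more, of all members or of a class, kept within 1.5 times of their value. Smaller class counts moved further. Mitochondrial carriers higher for testosterone against 14 days, for example, numbered 3 as deposited and 7 after median centring. Of 172 calls of the 57 named genes, 128 were kept in every one of the 29 settings run on the same probe set, and 28 were lost on leaving out some single array. No paired analysis was possible because the labels give no replicate numbers. Signals near the filter limit what can be said of Slc34a2, Slc25a3, Slc23a3 and Slc6a2.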
